A study of Mus musculus with 9 samples.

Results

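Among 35321 genes measured in tumours grown from LLC cells, 8 were chosen for large falls at both doses of digoxin, and they are described here library by library. They are Nptx1, Cpe, Bnc1, Stra6, Lgi2, Esx1, Scara3 and Gpr153. They were named individually, with no numeric limit on the fall, so the differences of these 8 genes from vehicle are given as descriptions and carry no test. All 8 passed the filter on low values, at least 1 FPKM (fragments per kilobase of transcript, scaled to depth) in at least 3 of 9 samples, which 13687 genes passed. LLC, Lewis lung carcinoma, is a tumour line that arose in a C57BL/6 mouse. The cells had been placed under the skin of male C57BL/6 mice 4 to 5 weeks old, and intraperitoneal treatment started on day 5. Poly(A) RNA came from 3 tumour samples each of mice given vehicle (PBS), 0.1 mg/kg digoxin or 1 mg/kg digoxin. Digoxin is a cardiac glycoside that blocks the sodium-potassium pump. The labels number the samples of a group without saying that they are separate mice, so the p-values below measure only the spread between these samples.

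The 8 genes belong to unrelated families. Nptx1 encodes neuronal pentraxin 1, a secreted protein that gathers AMPA receptors at excitatory synapses, and Lgi2 encodes a secreted leucine-rich repeat protein of a family that binds ADAM receptors. Cpe encodes carboxypeptidase E, which trims basic residues from prohormone intermediates in secretory granules. Stra6 encodes the membrane receptor for retinol-binding protein, through which cells take up vitamin A. Scara3 encodes a class A scavenger receptor, and Gpr153 an orphan G protein-coupled receptor. Bnc1 encodes basonuclin 1, a zinc finger protein of basal keratinocytes and germ cells, and Esx1 an X-linked homeobox protein of placenta and testis.

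Upstream sequences are shown first, as a description. The 8 genes shared only a partial order of libraries: vehicle, 0.1 mg/kg sample 2, 1 mg/kg sample 1, then the 4 other digoxin libraries. Genes outside the 8, such as Col3a1 and Krt18, had that order too. RefSeq promoter entries (build GRCm38.p6) matched 5 of the 8 genes, in 9 windows, and none was found for Nptx1, Cpe and Scara3. Each window below is the 250 bases before an annotated start, read 5′ to 3′ on the gene's strand, and holds no base of an exon of that gene in the GENCODE M21 annotation. Bnc1 is chr7:81992300-81992549 (minus strand), Gpr153 is chr4:152273862-152274111 (plus strand), Stra6 is the first of 4 windows, chr9:58128838-58129087 (plus strand), and Esx1 is chrX:137120327-137120576 (minus strand). The Stra6 and Esx1 windows lie before an internal start, inside the span of the longer GENCODE gene model. Capitals mark matches on either strand to the GC box GGGCGG, the CCAAT box, the AP-1-like pattern TGANTCA (N is any base) and the E-box CACGTG.
Bnc1: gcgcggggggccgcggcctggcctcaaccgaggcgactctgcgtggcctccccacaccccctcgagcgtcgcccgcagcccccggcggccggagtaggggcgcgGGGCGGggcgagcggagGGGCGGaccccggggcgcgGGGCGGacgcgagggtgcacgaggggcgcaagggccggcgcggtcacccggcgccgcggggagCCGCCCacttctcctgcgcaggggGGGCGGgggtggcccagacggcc
Gpr153: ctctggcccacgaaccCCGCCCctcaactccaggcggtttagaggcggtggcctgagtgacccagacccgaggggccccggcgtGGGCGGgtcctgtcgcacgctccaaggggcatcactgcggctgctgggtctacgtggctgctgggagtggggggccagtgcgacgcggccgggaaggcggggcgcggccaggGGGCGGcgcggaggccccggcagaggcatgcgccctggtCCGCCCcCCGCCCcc
Stra6: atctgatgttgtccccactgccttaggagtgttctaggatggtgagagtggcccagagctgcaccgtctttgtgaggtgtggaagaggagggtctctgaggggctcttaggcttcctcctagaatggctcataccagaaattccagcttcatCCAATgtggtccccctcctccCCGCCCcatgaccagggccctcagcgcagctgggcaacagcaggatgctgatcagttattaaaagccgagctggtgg
Esx1: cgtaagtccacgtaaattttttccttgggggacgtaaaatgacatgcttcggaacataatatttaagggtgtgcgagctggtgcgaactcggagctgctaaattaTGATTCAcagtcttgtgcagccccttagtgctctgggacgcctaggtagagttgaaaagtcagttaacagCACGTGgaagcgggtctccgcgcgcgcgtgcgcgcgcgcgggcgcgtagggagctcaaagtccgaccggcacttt

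No searched motif stood in all 5 genes. The Bnc1 and Gpr153 windows held 5 GC boxes each and the Stra6 window 1, while the Esx1 window held none; a GC box stood in 32.7% of all 32851 windows in the table, and matches that overlap were each counted. The Lgi2 window, which is not printed because 156 of its bases are untranslated sequence in GENCODE, held 2 GC boxes and 1 CCAAT box. The CCAAT box stood in 33.8% of all windows. Esx1 alone among the 5 genes had an AP-1 match, found in 6.75% of all windows, and a CACGTG match, found in 6.02%. None of the 9 windows held TATAAA (12.4% of all windows) or TGACGTCA (1.55%). The number of CpG dinucleotides over the 9 windows ranged from 39 in Bnc1 to 3 in the third and the fourth Stra6 windows, with 4 and 9 in the first and second of Stra6, 26 and 36 in those of Gpr153, 24 in Esx1 and 21 in Lgi2, beside a median of 6 over all windows. Thus Bnc1 had more CpGs than 98.4% of windows and the first Stra6 window more than 37.8%. A match is a run of letters and not evidence of binding.

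Some facts of the libraries bear on every value that follows. The depths recovered from the FPKM values ran from 40517062 to 51810956 reads and were highest in the vehicle group. Sample 2 at 0.1 mg/kg and sample 1 at 1 mg/kg lay between the vehicle libraries and the 4 other digoxin libraries, called the low libraries here, for these genes. Values are therefore given with and without that intermediate pair. Xist, the RNA that coats the inactive X chromosome of female cells, was at 12.0, 16.6 and 13.8 FPKM with vehicle, 18.2 in 0.1 mg/kg sample 2 and 7.05 in 1 mg/kg sample 1, but at 0.221 to 0.419 in the 4 other digoxin libraries. The hosts are labelled male, and the Y-linked gene Ddx3y was detected in all 9 libraries at 1.46 to 2.93 FPKM. The part of this library difference in the results was not tested. Of the 5 lung alveolar markers in the table, Nkx2-1, Sftpb and Sftpc were under 1 FPKM in every library, while Hopx and Ager had vehicle means of 12.6 and 2.51 FPKM.

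With vehicle the 8 genes could be ordered in part on the FPKM scale, which is per length. Cpe (59.7 ± 1.92 FPKM, SD, n = 3) and Nptx1 (53.5 ± 8.23) were highest, and their ranges overlapped. Gpr153 (41.8 ± 3.49) and Scara3 (37.2 ± 3.62) followed, also with overlapping ranges, and the lowest Nptx1 value (44.0) lay within the range of Gpr153 (38.3 to 45.3). Lgi2 (13.4 ± 0.792), Stra6 (13.3 ± 4.02) and Bnc1 (12.4 ± 0.807) could not be separated beyond their spread. Esx1 was lowest at 7.89 ± 0.697 FPKM, and all its vehicle values lay below those of the other genes. In every digoxin library each of the 8 genes was below all 3 of its vehicle values; groups separated in this way for 23.4% of all tested genes, and since the falls chose the genes, nothing is read from that count. In bulk tumour RNA, fewer cells of a type and less RNA per cell cannot be told apart.

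**Figure D1:**
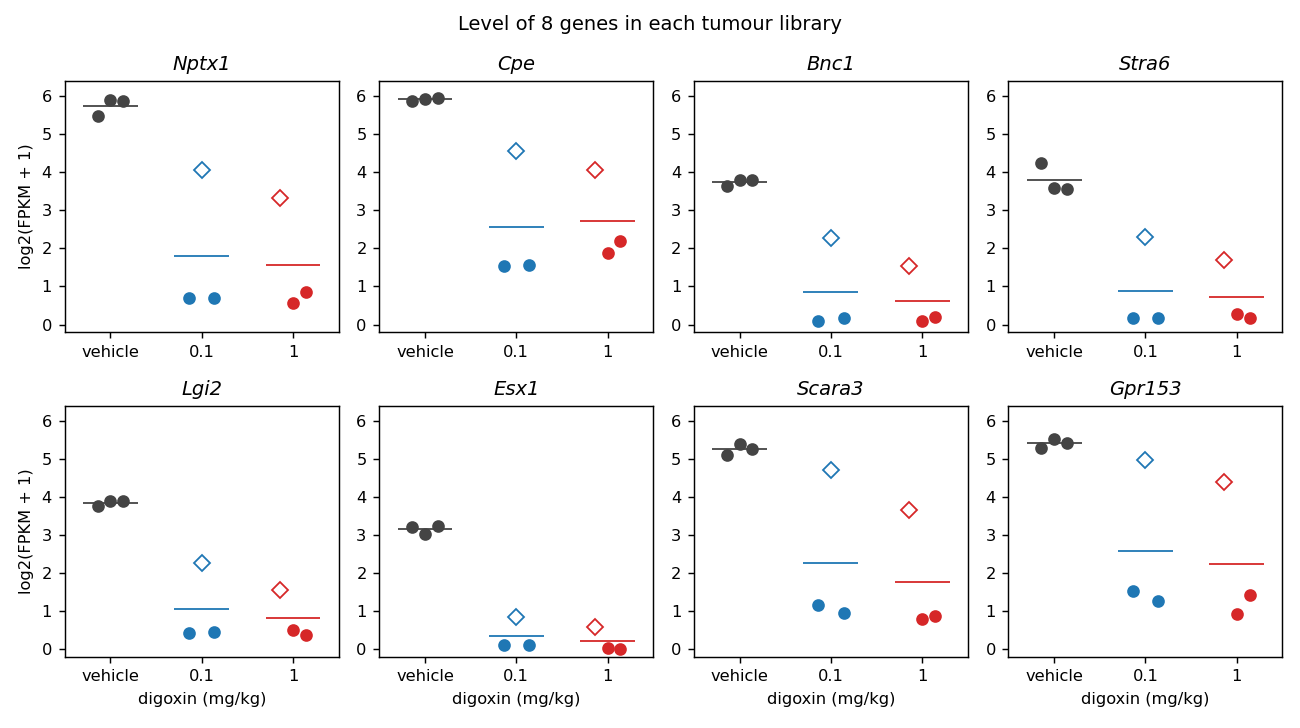
Level of each gene on the log2(FPKM + 1) scale (y axis) in the 3 vehicle, 3 digoxin 0.1 mg/kg and 3 digoxin 1 mg/kg libraries (x axis); each point is 1 library, bars are group means, and open diamonds are 0.1 mg/kg sample 2 and 1 mg/kg sample 1. In all 8 panels the diamonds lie between the vehicle points and the other digoxin points.

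Nptx1 showed the largest fall of all tested genes at both doses in log2(FPKM + 1), a measure that favours abundant genes; as a share of vehicle Esx1 fell further. It was at 44.0, 59.1 and 57.3 FPKM with vehicle, at 0.608, 15.7 and 0.611 FPKM in samples 1, 2 and 3 at 0.1 mg/kg, and at 8.95, 0.472 and 0.804 FPKM at 1 mg/kg. The 4 low digoxin libraries were thus under 1 FPKM, and the second sample at 0.1 mg/kg stood highest among those treated. Recovered reads fell from between 11177 and 15500 with vehicle to between 100 and 170 in the 4 low libraries, so the remaining level was read well above 0. The log2 fold change on the log2(FPKM + 1) scale was -3.95 (SE 0.97) at 0.1 mg/kg and -4.18 (SE 0.97) at 1 mg/kg. Without the pair of intermediate libraries it was -5.07 and -5.05.

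Lgi2, the other secreted protein with neuronal roles, was at 12.5, 13.9 and 13.8 FPKM with vehicle, at 0.336, 3.85 and 0.371 FPKM at 0.1 mg/kg, and at 1.93, 0.419 and 0.291 FPKM at 1 mg/kg. The same pair of digoxin libraries stood above the rest, and no digoxin value reached a vehicle value. Its log2 fold change was -2.80 (SE 0.49) at 0.1 mg/kg and -3.04 (SE 0.49) at 1 mg/kg, and -3.41 at each dose without the intermediate pair. Between 77 and 111 reads remained in the 4 low libraries.

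Cpe kept the largest mean share over the 4 low libraries, although Gpr153 kept more in both low libraries at 0.1 mg/kg. It was at 57.5, 60.4 and 61.1 FPKM with vehicle, at 1.89, 22.7 and 1.96 FPKM at 0.1 mg/kg, and at 15.8, 2.65 and 3.58 FPKM at 1 mg/kg. The low libraries at 1 mg/kg were both above those at 0.1 mg/kg, a separation that no other of the 8 genes showed in that direction. The log2 fold change was -3.37 (SE 0.83) at 0.1 mg/kg and -3.21 (SE 0.83) at 1 mg/kg, or -4.37 and -3.89 without the intermediate pair.

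Stra6 varied most within the vehicle group, with a coefficient of variation of 30.2%. It was at 18.0, 11.1 and 10.9 FPKM with vehicle, at 0.132, 3.93 and 0.119 FPKM at 0.1 mg/kg, and at 2.26, 0.203 and 0.119 FPKM at 1 mg/kg. Vehicle sample 1 stood above the other vehicle samples, and the 4 low digoxin libraries lay close together. They held between 28 and 48 reads of Stra6. The log2 fold change was -2.92 (SE 0.61) at 0.1 mg/kg and -3.09 (SE 0.61) at 1 mg/kg, or -3.63 and -3.59 without the intermediate pair.

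Scara3 and Gpr153 differed from the other genes in how much the intermediate libraries retained. Scara3 was at 33.5, 40.8 and 37.5 FPKM with vehicle, at 1.23, 25.3 and 0.931 FPKM at 0.1 mg/kg, and at 11.6, 0.747 and 0.83 FPKM at 1 mg/kg. Gpr153 was at 38.3, 45.3 and 41.9 FPKM with vehicle, at 1.91, 30.3 and 1.41 FPKM at 0.1 mg/kg, and at 20.1, 0.889 and 1.68 FPKM at 1 mg/kg. For both genes 0.1 mg/kg sample 2 was nearer to the vehicle values than to the other samples of its own group. The log2 fold changes of Scara3 were -2.98 and -3.47 (SE 1.05), and -4.20 and -4.41 without the intermediate pair. Those of Gpr153 were -2.82 and -3.17 (SE 1.10), and -4.01 and -4.25 without it.

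The genes of the nuclear proteins Bnc1 and Esx1 kept the smallest mean shares of vehicle over the 4 low libraries, while in 0.1 mg/kg sample 2 Bnc1 kept more than Lgi2, Nptx1 and Stra6. Bnc1 was at 11.5, 12.9 and 12.8 FPKM with vehicle, at 0.0698, 3.88 and 0.128 FPKM at 0.1 mg/kg, and at 1.93, 0.0632 and 0.137 FPKM at 1 mg/kg. The 4 low libraries held 12 to 26 reads of Bnc1, beside 2609 to 3109 with vehicle. Esx1 was at 8.20, 7.09 and 8.37 FPKM with vehicle, at 0.0705, 0.786 and 0.0698 FPKM at 0.1 mg/kg, and at 0.489, 0.0248 and 0 FPKM at 1 mg/kg. No read of Esx1 was found in 1 mg/kg sample 3, where 3 reads would be 0.0373 FPKM, or 0.473% of the vehicle mean; this limit covers counting error only. Esx1 had 704 to 861 reads with vehicle, 67 in 0.1 mg/kg sample 2 and 41 in 1 mg/kg sample 1. Both nuclear genes thus kept the library order of the other genes. The log2 fold changes of Bnc1 were -2.89 and -3.13 (SE 0.59), and those of Esx1 were -2.80 and -2.95 (SE 0.23), the smallest standard error of the 8; on this scale the added 1 FPKM understates the change of low genes. Without the intermediate pair they were -3.61 and -3.60 for Bnc1 and -3.05 and -3.13 for Esx1.

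The level left in each digoxin library was then expressed as a percent of the gene's vehicle mean. In the 4 low libraries together the mean share ran from 0.523% (Esx1) to 4.22% (Cpe), with a median of 1.84% over the 8 genes. The corresponding levels were 191-fold lower than vehicle for Esx1, 124-fold lower for Bnc1, 93.1-fold lower for Stra6 and 85.7-fold lower for Nptx1. The value for Esx1 rests on 0 to 6 reads in each low library. Scara3 was 39.8-fold lower, Lgi2 37.8-fold, Gpr153 28.4-fold and Cpe 23.7-fold. The group means gave a median share of 11.2% at 0.1 mg/kg and 6.52% at 1 mg/kg, so most of each group mean came from its intermediate library. Leaving out 0.1 mg/kg sample 2 brought the 0.1 mg/kg median to 1.89%, and leaving out 1 mg/kg sample 1 brought the 1 mg/kg median to 1.66%.

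In 0.1 mg/kg sample 2 the share left was 9.97% for Esx1, 28.7% for Lgi2, 29.3% for Nptx1, 29.5% for Stra6, 31.3% for Bnc1 and 38.1% for Cpe. Scara3 kept 67.8% and Gpr153 72.5% in that library. The 5 genes from Lgi2 to Cpe therefore lay close together, with Esx1 well below them and Scara3 and Gpr153 well above. In 1 mg/kg sample 1 the shares were 6.20% for Esx1, 14.4% for Lgi2, 15.6% for Bnc1, 16.7% for Nptx1, 17.0% for Stra6, 26.6% for Cpe, 31.2% for Scara3 and 48.1% for Gpr153. Esx1 was again lowest and Gpr153 highest. All 8 genes were higher in 0.1 mg/kg sample 2 than in 1 mg/kg sample 1, by 1.44-fold (Cpe) to 2.17-fold (Scara3). Each share rests on 1 library, so these differences between genes have no replicate check.

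**Figure D2:**
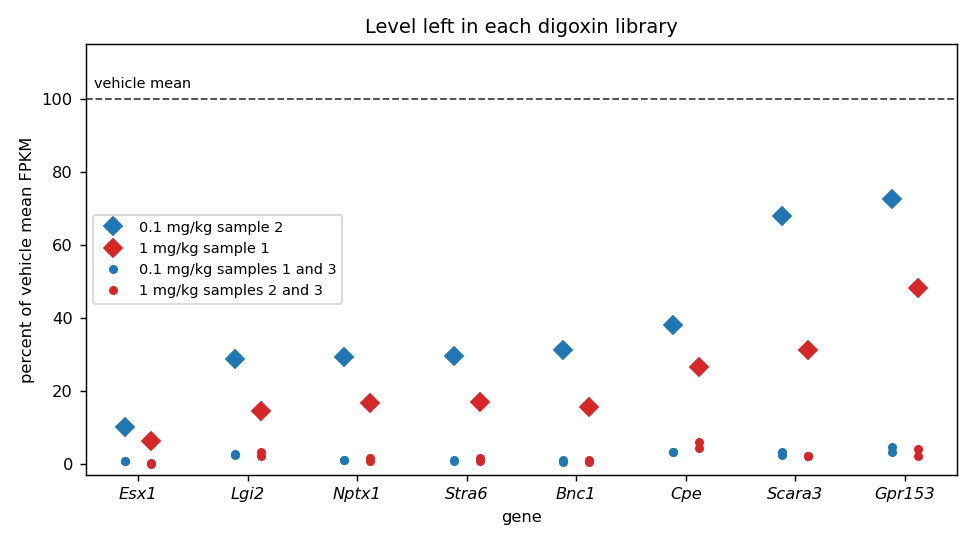
Level of each gene as a percent of its vehicle mean (y axis, FPKM) in each of the 6 digoxin libraries (x axis: genes ordered by 0.1 mg/kg sample 2); diamonds are 0.1 mg/kg sample 2 and 1 mg/kg sample 1, dots the 4 other digoxin libraries. The diamonds run from 9.97% to 72.5% and from 6.20% to 48.1%, while the means of the dots lie between 0.523% and 4.22%.

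The shares in the intermediate libraries were set beside those of other strongly lost genes. At least 5 FPKM with vehicle and a mean under 10% of vehicle in the 4 low libraries were found for 68 genes, which include all 8. Over these 68 the share in 0.1 mg/kg sample 2 had a median of 55.8% (quartiles 35.3% and 76.9%), and that in 1 mg/kg sample 1 a median of 31.3% (quartiles 22.9% and 43.9%). Esx1 was the lowest of the 68 in both libraries. Lgi2 had 10.3% and 4.41% of the set below it, Nptx1 11.8% in each, Bnc1 19.1% and 7.35%, and Stra6 13.2% and 14.7%. Cpe had 29.4% and 36.8% below it, Scara3 58.8% and 48.5%, and Gpr153 61.8% and 82.4%. Of the 8, 6 lay below the median of the set in both libraries. They were picked on group means that contain these libraries, which favours low shares in them, so this order describes the choice as much as the genes. Of the 68, 65 were higher in 0.1 mg/kg sample 2 than in 1 mg/kg sample 1, so that order was not limited to the 8.

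**Figure D3:**
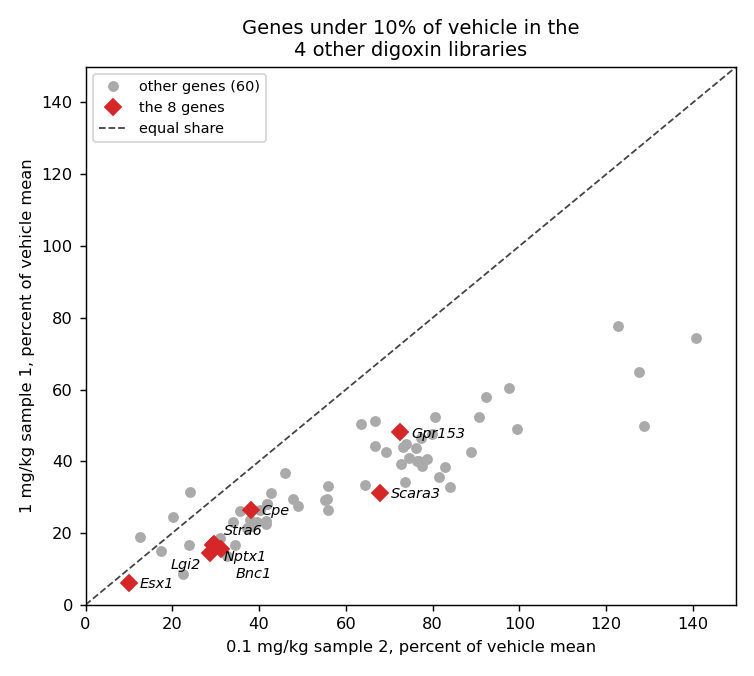
Share of the vehicle mean left in 0.1 mg/kg sample 2 (x axis, percent) and in 1 mg/kg sample 1 (y axis, percent) for the 68 genes under 10% of vehicle in the 4 other digoxin libraries; red diamonds are the 8 genes and grey dots the other 60, and the dashed line marks equal shares. Points lie below the line for 65 of 68 genes, and Esx1 is nearest to the origin.

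The choice of genes used the values of both digoxin groups and favoured genes low in each, so the difference between the doses is not independent of it and is given as a description. Of the 8, 0 passed limma's test with Benjamini-Hochberg adjustment over all 13687 genes, 0 had an unadjusted p under 0.05, and limma-voom on the recovered reads also called 0; nothing is read from these counts. Of all tested genes 0.0146% passed in this contrast (2 genes), and 13.6% had an unadjusted p under 0.05. The estimated differences, 1 mg/kg minus 0.1 mg/kg on the log2 scale, ran from -0.50 for Scara3 (95% interval -2.88 to 1.89) to 0.16 for Cpe (-1.73 to 2.04). The interval was narrowest for Esx1, -0.67 to 0.39 around -0.14, and wide for Nptx1, -2.45 to 1.97 around -0.24. Intervals of this width include several-fold differences in either direction for Nptx1, Scara3 and Gpr153, so the doses are not shown to act alike on these genes. Each dose had 1 intermediate library, and the sign turned with it. Without 0.1 mg/kg sample 2 the difference was positive for all 8, from 0.11 for Esx1 to 1.16 for Cpe, and without 1 mg/kg sample 1 it was negative for all 8, from -0.33 for Esx1 to -1.44 for Scara3. Without both intermediate libraries it ran from -0.23 for Gpr153 to 0.48 for Cpe.

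Genes whose profile was most like the mean profile of the 8 were sought among 11667 tested genes by Pearson's r of log2(FPKM + 1) over the 9 samples. Gpr149, an orphan receptor, was closest at r = 0.9996, followed by Adgra2, an adhesion receptor of vascular development, at 0.9992. Nsun2 (an RNA methyltransferase, 0.9988), Clstn1 (0.9987), Mthfd1 (an enzyme of folate metabolism, 0.9984), Unc5a (a netrin receptor, 0.9984), Abtb3 (0.9981) and Macroh2a2 (a histone variant, 0.9973) came next. All of them share the same 9 libraries and the same pair of intermediate ones, so these values are descriptions. The depth of the fall was no part of the measure: Gpr149 went from 5.64 FPKM with vehicle to 0.829 and then 0.549 FPKM with rising dose, while Nsun2 went only from 41.7 to 20.6 and 18.9 FPKM. By single gene the closest were Unc5a for Nptx1 (0.9979), Ncl for Cpe (0.9965), Abtb3 for Bnc1 (0.9993), Adgra2 for Stra6 (0.9951) and Fkbp3 for Lgi2 (0.9991). Zfp469 was closest to Esx1 (0.9967), Fendrr, a long noncoding RNA, to Scara3 (0.9987), and Iglon5 to Gpr153 (0.9973). Zfp469 shared the low retention of Esx1, with 13.8% and 15.3% of vehicle in the intermediate libraries, and Iglon5 the high retention of Gpr153, with 89.1% and 75.1%.

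Relatives of the 8 genes, in family or pathway, did not follow them as a group. Of 129 listed relatives 55 were tested. At 0.1 mg/kg, 18 rose and 9 fell by limma's adjusted p, with a median log2 fold change of 0.24. The excess of rises over falls was smaller or absent under other scalings: quantile normalisation gave 13 rises and 12 falls, and rescaling to TPM 13 of each. Over all tested genes 42.2% were called, 21.6% up and 20.7% down (2952 and 2829 genes), with a median of 0.02. Quantile normalisation gave 2403 rises and 3552 falls over all genes, and rescaling to TPM 2368 and 3790. Rises were 51.1% of all genes called in the main fit, 40.4% with quantile normalisation and 38.5% with TPM. Beside all genes the relatives at 0.1 mg/kg thus still held a larger part of rises under each of these scalings. In the main fit most of these rises came from 2 lists. Scavenger receptors gave 5 rises and 2 falls, and genes with Gpr names 8 rises and 1 fall. No test was run over the list. At 1 mg/kg, 11 relatives rose and 14 fell, with a median of 0.01, beside 45.9% of all tested genes called, 20.7% up and 25.2% down, and a median of -0.04. Without both intermediate libraries the relatives gave 23 rises and 16 falls at the lower dose, beside 31.9% and 29.6% of all tested genes. The higher dose then gave 21 rises and 17 falls, beside 31.4% and 29.9%. The doses share their vehicle samples, so they are not independent. Leaving out 1 library at a time gave 7 (without 0.1 mg/kg sample 3) to 20 (without 1 mg/kg sample 1) rises and 3 (without vehicle sample 2) to 15 (without 0.1 mg/kg sample 2) falls at 0.1 mg/kg. At 1 mg/kg it gave 6 (without vehicle sample 2 or 3) to 20 (without 1 mg/kg sample 1) rises and 8 (without 1 mg/kg sample 3) to 17 (without 0.1 mg/kg sample 2) falls.

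Among relatives of the secreted synaptic proteins, Nptxr, the membrane-bound partner of the neuronal pentraxins, fell at both doses. It was at 64.4, 62.0 and 61.7 FPKM with vehicle, 24.8, 44.1 and 25.9 FPKM at 0.1 mg/kg, and 33.8, 25.8 and 25.4 FPKM at 1 mg/kg. It thus fell far less than Nptx1, but 0.1 mg/kg sample 2 and 1 mg/kg sample 1 again stood highest within their groups. The log2 fold changes were -1.02 (SE 0.20, limma adjusted p = 0.00598) and -1.13 (SE 0.20, adjusted p = 0.00333). Nptx2, the other secreted neuronal pentraxin, was at no more than 0.0373 FPKM in every library. None of the 6 listed LGI proteins and ADAM receptors passed the filter; Lgi1, Lgi3 and Lgi4 had vehicle means of 0.004, 0.108 and 0.11 FPKM, far under the 13.4 FPKM of Lgi2.

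Prohormone processing had 9 tested genes; the lower dose gave 1 rise and 2 falls, and the higher dose 3 falls. Cpd, a carboxypeptidase of the same family as Cpe that works in the trans-Golgi network, fell from 21.3 ± 1.64 FPKM to 11.0 ± 2.33 and 10.1 ± 1.95 FPKM (SD, n = 3; limma adjusted p = 0.00419 and 0.00233). Cpxm1, a relative without the catalytic activity, rose at 0.1 mg/kg from 1.10 ± 0.338 to 4.40 ± 1.01 FPKM (log2 1.36, adjusted p = 0.00163), and its log2 fold change at 1 mg/kg was 0.45 (adjusted p = 0.0843). The proprotein convertase Pcsk4 fell, with log2 fold changes of -0.82 and -1.03 (limma adjusted p = 0.0346 and 0.0136). Its call at 0.1 mg/kg was lost in 5 of 9 fits that each left out 1 library, with an adjusted p of up to 0.116 without 0.1 mg/kg sample 3. Cpxm1 was thus the single riser of this list, at 1 dose.

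Retinoid genes, the list around Stra6, were divided: the 14 tested gave 3 rises and 2 falls at the lower dose, with 3 rises and 3 falls at the higher dose. Rara, the retinoic acid receptor alpha, rose from 15.0 ± 0.408 FPKM to 21.7 ± 1.84 and 27.0 ± 2.97 FPKM (SD, n = 3; log2 0.50 and 0.80, limma adjusted p = 0.00501 and 0.00077). Rdh10, which oxidises retinol on the way to retinoic acid, fell from 23.7 ± 1.63 to 9.19 ± 6.26 and 7.92 ± 4.29 FPKM (log2 -1.45 and -1.57, adjusted p = 0.0259 and 0.0176). Rdh10 also stood highest in the intermediate libraries, at 16.2 and 12.9 FPKM, and 5 of the 9 fits without 1 library lost its call at 0.1 mg/kg and 4 that at 1 mg/kg, with an adjusted p of up to 0.0866 without 0.1 mg/kg sample 3. Rarb, a retinoic acid receptor gene that responds to retinoic acid in many cells, had a mean of 0.0151 FPKM with vehicle and was not tested.

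Scavenger receptors other than Scara3 numbered 11 tested, with 5 rises and 2 falls at the lower dose, and 3 rises and 2 falls at the higher. Marco, a class A scavenger receptor of macrophages, rose from 0.384, 0.125 and 0.231 FPKM with vehicle to 10.6, 6.21 and 19.5 FPKM at 0.1 mg/kg and 5.37, 4.55 and 4.51 FPKM at 1 mg/kg. Its groups did not overlap (log2 3.27 and 2.22, limma adjusted p = 0.000415 and 0.00132), and it ran opposite to Scara3. Colec12, another scavenger receptor with a collagen-like stalk, fell from 7.35 ± 0.473 to 2.27 ± 2.48 and 1.57 ± 1.18 FPKM (SD, n = 3; adjusted p = 0.025 and 0.0148). The fits without 1 library lost its call 5 times of 9 at 0.1 mg/kg and 2 times at 1 mg/kg, with an adjusted p of up to 0.0909 without 0.1 mg/kg sample 3. Scara5, another class A scavenger receptor, had log2 fold changes of 1.01 (limma adjusted p = 0.116) and 0.65 (adjusted p = 0.288). Summed macrophage markers were at 622 to 679 FPKM with vehicle, 872 to 1270 FPKM at 0.1 mg/kg and 593 to 844 FPKM at 1 mg/kg, so only the lower dose stood clear of vehicle. Of these 6 markers 4 rose at 0.1 mg/kg; at 1 mg/kg 3 rose and 2, Adgre1 and Csf1r, fell (limma adjusted p = 0.0135 and 0.0498). Their part in the result for Marco was not tested.

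Genes with Gpr names, the list around Gpr153, were not all orphan receptors. With 15 tested, they gave 8 rises and 1 fall at the lower dose, and 4 rises and 3 falls at the higher. Gpr162, the receptor most like Gpr153 in the list, went down with it: from 3.21 ± 0.428 FPKM to 1.48 ± 0.874 and 0.814 ± 0.379 FPKM (SD, n = 3; limma adjusted p = 0.0274 and 0.00484). The call at 0.1 mg/kg was lost in 4 of the 9 fits without 1 library, with an adjusted p of up to 0.0968 without 0.1 mg/kg sample 3. Gpr146 rose, with log2 fold changes of 0.89 and 0.73 (limma adjusted p = 0.00749 and 0.0148), and without vehicle sample 3 the adjusted p at 1 mg/kg was 0.0519. The list around Esx1 joined placental genes with homeobox genes and had 4 tested genes: Rhox5, Hand1, Plac1 and Peg10. It gave 1 rise (Hand1) and 1 fall (Rhox5) at the lower dose. At the higher dose it gave 1 rise (Hand1) and 2 falls (Rhox5 and Peg10). Rhox5, an X-linked homeobox gene like Esx1, stayed abundant: it was at 322 ± 12.3 FPKM with vehicle, 231 ± 57.7 FPKM at 0.1 mg/kg and 187 ± 27.2 FPKM at 1 mg/kg. It passed at both doses (limma adjusted p = 0.0441 and 0.0071), but its call at 0.1 mg/kg was lost in 7 of the 9 fits without 1 library, with an adjusted p of up to 0.135 without 0.1 mg/kg sample 1. Peg10, an imprinted placental gene, had a library order like that of the 8 genes, except that 0.1 mg/kg sample 2 stood above vehicle sample 1. It was at 7.74, 14.4 and 12.0 FPKM with vehicle, 0.189, 8.81 and 0.246 FPKM at 0.1 mg/kg, and 5.29, 0.281 and 0.27 FPKM at 1 mg/kg. With an adjusted p of 0.0614 at 0.1 mg/kg by limma it did not pass there; at 1 mg/kg it passed (adjusted p = 0.0457), but leaving out single samples ended that in 5 of the 9 fits, with up to 0.135 without 1 mg/kg sample 3. Bnc2, the only other basonuclin, had a vehicle mean of 0.207 FPKM and was not tested.

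The genes next to the 8 on the chromosome were compared as well, taking the nearest 2 tested genes on each side by RefSeq order. Limma gave 5 rises and 9 falls among these 32 neighbours at the lower dose, beside 21.6% up and 20.7% down over all tested genes. At the higher dose it gave 8 rises and 11 falls, beside 20.7% and 25.2%. Quantile normalisation gave 3 rises and 12 falls at the lower dose, beside 2403 and 3552 of all tested genes. Without both intermediate libraries there were 10 rises with 11 falls at the lower dose, beside 31.9% and 29.6% of all tested genes. The higher dose then gave 11 rises with 13 falls, beside 31.4% and 29.9%. Leaving out vehicle sample 3 reduced the neighbours called to 3 rises with 3 falls at the lower dose and 4 with 6 at the higher. Over all tested genes that fit gave 1844 with 1638 and 1888 with 2241. With 32 neighbours these counts are descriptions, and nothing about the chromosome regions is read from them. The 4 neighbours of Stra6 passed at both doses, 3 lower and 1 higher, but at 0.1 mg/kg the fits without 1 library lost Sema7a in 6 of 9 cases (adjusted p up to 0.105, without vehicle sample 2) and Islr2 in 4 (up to 0.0701, without 0.1 mg/kg sample 3). Islr, next to Stra6, fell from 71.1 ± 4.57 FPKM to 23.1 ± 11.5 and 19.9 ± 6.73 FPKM (SD, n = 3; adjusted p = 0.00589 and 0.00351). Cyp11a1, the enzyme that opens steroid hormone synthesis, lies on the other side of Stra6 and rose from 0.0875 FPKM to 5.57 and 2.13 FPKM. Its limma adjusted p was 0.00538 at 0.1 mg/kg and 0.0343 at 1 mg/kg; 5 of 9 fits lost the second call without 1 library, with up to 0.114 without 1 mg/kg sample 3. The fall of Stra6 thus stood between a falling and a rising gene.

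Neighbours of the other genes rose in some cases and fell in others. Ptk2b, a focal adhesion kinase relative near Scara3, rose from 3.53 ± 0.137 FPKM to 23.3 ± 6.59 and 21.5 ± 1.82 FPKM (SD, n = 3; limma adjusted p = 0.000221 and 0.000224). Ddx60, an antiviral helicase next to Cpe, rose from 0.572 ± 0.0591 to 3.02 ± 0.719 and 2.63 ± 0.858 FPKM (adjusted p = 0.00158 and 0.00206). Dhx15, a splicing helicase near Lgi2, fell from 31.5 ± 1.27 to 17.4 ± 1.69 and 19.4 ± 0.933 FPKM (adjusted p = 0.000507 and 0.000914). Icmt, a methyltransferase of prenylated proteins next to Gpr153, fell from 18.8 ± 0.656 to 12.2 ± 2.66 and 11.3 ± 1.92 FPKM (limma adjusted p = 0.0142 and 0.00692), and 2 of 9 fits without 1 library lost the call at 0.1 mg/kg, with up to 0.0554 without 0.1 mg/kg sample 3. Acot7, on the other side of Gpr153, fell at 1 mg/kg (log2 -1.01, adjusted p = 0.0168), a result that ended in 3 of 9 such fits, and at 0.1 mg/kg it was at -0.75 (adjusted p = 0.0534). Trap1a, which followed Esx1 on the X chromosome, was at 0.0349, 0 and 0 FPKM with vehicle and at 0.502 to 2.13 FPKM in the digoxin libraries. It rose by limma (log2 0.98 and 1.19, adjusted p = 0.0185 and 0.00766), and 4 of 9 fits without 1 library lost the call at 0.1 mg/kg, with an adjusted p of up to 0.0702 without 0.1 mg/kg sample 3. Around Nptx1 the log2 fold changes of the 4 neighbours lay between -0.61 and 0.23 at both doses. No neighbour had a fall as large as that of the gene beside it.

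**Figure D4:**
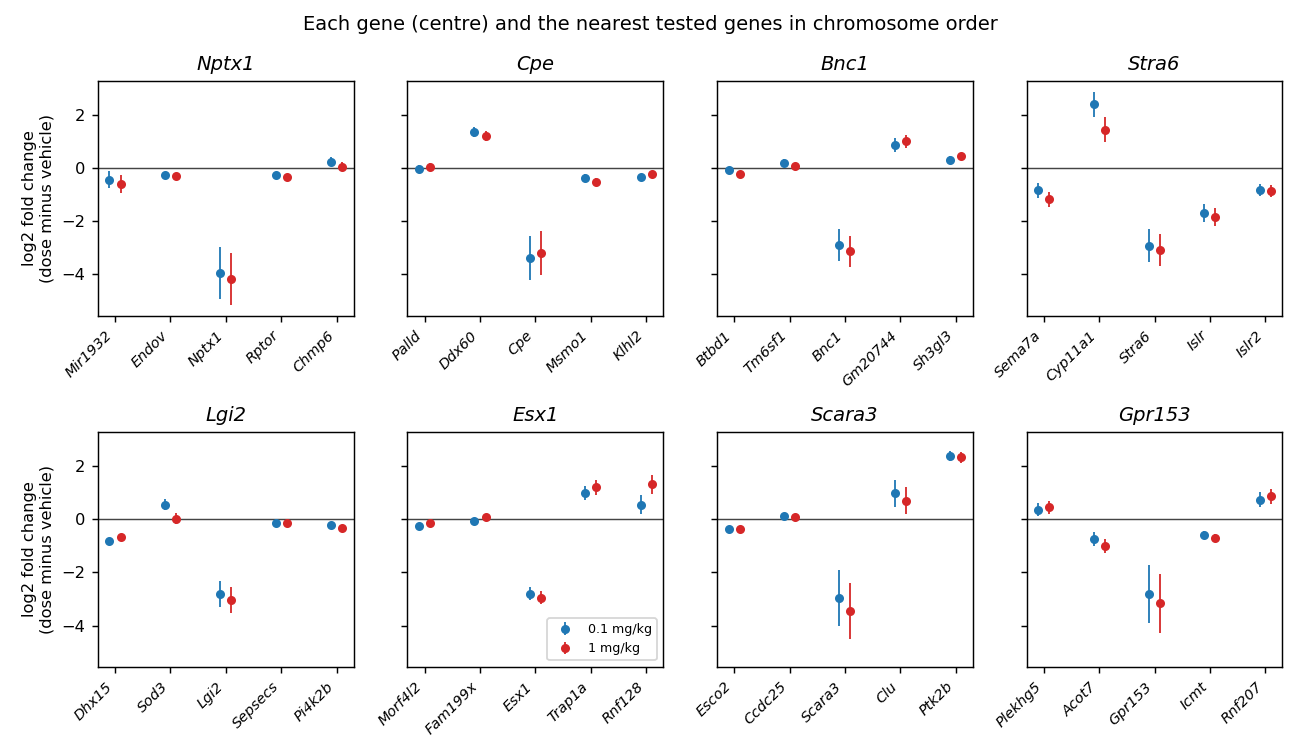
Log2 fold change from vehicle on the log2(FPKM + 1) scale (y axis) of each gene, in the centre of its panel, and of the nearest 2 tested genes on each side in chromosome order (x axis); blue is 0.1 mg/kg, red 1 mg/kg, and bars are standard errors from limma. The centre gene, chosen for its large fall, is lowest in all 8 panels. Ptk2b near Scara3 and Cyp11a1 next to Stra6 rise by 2.38 and 2.39 at 0.1 mg/kg.

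Markers of other cell types were summed in the same libraries. Summed fibroblast markers followed the order of the 8 genes in a weaker form: 952 to 1070 FPKM with vehicle, 347, 668 and 316 FPKM at 0.1 mg/kg, and 581, 355 and 322 FPKM at 1 mg/kg. By limma, the lower dose gave 3 falls and 1 rise among these 6 markers, and the higher dose 4 falls and 1 rise. Col3a1, a fibrillar collagen, carried most of the sum with vehicle and went from 638 ± 49.3 FPKM to 215 ± 146 and 193 ± 101 FPKM (SD, n = 3). Col1a1, the chain of type I collagen, went the other way, from 40.1 ± 16.3 to 107 ± 33.9 and 142 ± 23.6 FPKM (limma adjusted p = 0.00913 and 0.00261), and exceeded Col3a1 in 1 mg/kg samples 2 and 3. Skeletal muscle markers summed to 30.8 to 101 FPKM with vehicle, 147 to 298 FPKM at 0.1 mg/kg and 49.2 to 1060 FPKM at 1 mg/kg, and leukocyte markers to 199 to 228, 283 to 416 and 245 to 262 FPKM. Endothelial markers overlapped between groups, at 35.2 to 46.0, 33.1 to 50.4 and 21.5 to 58.8 FPKM.

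Markers of cell types in which some of the 8 genes are known to be active differed widely in summed level. Keratinocyte markers summed to no more than 0.705 FPKM in any library, beside the 12.4 FPKM of Bnc1 with vehicle. Of 6 neuronal markers 5 were under 1 FPKM in every library, and the sum was 9.52 to 14.8 FPKM with vehicle, 9.29 to 11.1 FPKM at 0.1 mg/kg and 3.22 to 7.29 FPKM at 1 mg/kg. Neuroendocrine markers summed to 1.56 to 2.83, 2.46 to 5.79 and 1.65 to 3.05 FPKM, and Schwann cell markers to 6.67 to 7.32, 2.53 to 4.61 and 2.81 to 3.40 FPKM. Mbp carried most of the Schwann cell sum with vehicle and had means of 5.86, 1.63 and 1.15 FPKM. Erbb3 went the other way, from 0.192 to 1.10 and 1.00 FPKM (limma adjusted p = 0.0088 and 0.00992). The 4 other Schwann cell markers were under 1 FPKM in every library. Trophoblast markers summed to 24.2 to 36.1, 14.6 to 39.0 and 18.8 to 25.9 FPKM. Plac1 held most of that, and Hand1, a transcription factor of trophoblast giant cells and heart, rose from 0.0103 to 4.52 and 3.28 FPKM (limma adjusted p = 0.018 and 0.0199). Leaving out 1 library ended the result of Hand1 in 2 of 9 fits at 0.1 mg/kg and in 5 at 1 mg/kg, with up to 0.0703 without 1 mg/kg sample 3. Alveolar epithelial markers went from 14.2 to 15.6 FPKM with vehicle to 7.27 to 13.3 and 5.76 to 7.33 FPKM. Hopx, most of the sum with vehicle, had means of 12.6, 4.70 and 3.05 FPKM (limma adjusted p = 0.0331 and 0.0153), and Ager, at 2.51, 4.68 and 3.17 FPKM (adjusted p = 0.046 and 0.448), exceeded it in the 4 low libraries. Simple epithelial markers summed to 46.3 to 68.0, 81.8 to 109 and 112 to 137 FPKM, with members going opposite ways. The keratin Krt8 rose from 1.70 to 4.13 FPKM with vehicle to 58.7 to 105 and 103 to 126 FPKM and Krt19 rose too, whereas Krt18, the usual partner of Krt8, had means of 55.7, 6.46 and 3.65 FPKM (limma adjusted p = 0.0113 and 0.0066); Epcam, Cdh1 and Cldn4 were under 1 FPKM in every library. Mesothelial markers summed to 5.58 to 8.11, 18.5 to 30.2 and 29.0 to 39.9 FPKM. Nearly all of that was Msln, at means of 6.53, 20.3 and 27.2 FPKM, and Krt19, which was also listed as simple epithelial. The 4 other mesothelial markers were under 1 FPKM in every library. Adipocyte markers ran from 5.29 to 9.30, 15.1 to 43.1 and 6.00 to 24.2 FPKM. The part of any of these cell types in the loss of the 8 genes was not tested.

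**Figure D5:**
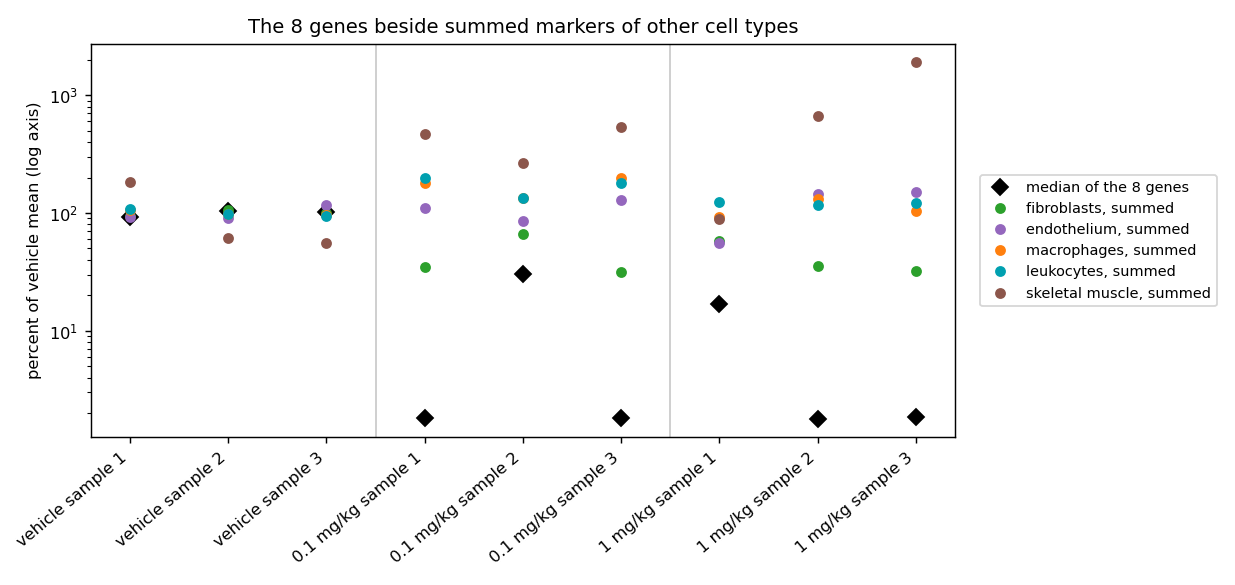
Median share of the vehicle mean over the 8 genes (black diamonds) and summed FPKM of 5 marker lists as a percent of their vehicle mean (coloured dots) in each of the 9 libraries (x axis), on a log y axis in percent. The black diamonds stand at 30.4% and 16.9% in the intermediate libraries and at 1.76% to 1.83% in the 4 other digoxin libraries, and the fibroblast dots follow the same order at higher levels.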

How the data were processed

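Poly(A) RNA of 9 tumour samples (3 vehicle, 3 digoxin 0.1 mg/kg, 3 digoxin 1 mg/kg) was sequenced as 150 bp read pairs, per the labels. The authors deposited 1 table of FPKM values. The tools were fastp (version 0.22.0) for reads and HISAT2 (version 2.2.1), with the build named GRCh38, per the submitters' processing notes. That build is human while the table's symbols are mouse. The step from alignments to FPKM is not given in the sources used here. All value columns were used.

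FPKM as deposited was taken to log2(FPKM + 1). The 13687 of 35321 genes reaching 1 FPKM in 3 or more samples were tested in 1 fit of all samples with limma 3.58.1 in R 4.3.3 (mean-variance trend, two-sided, Benjamini-Hochberg, threshold 0.05), after a test on simulated data. Whole reads were recovered from the spacing of the FPKM values: 99.86% of tested genes gave whole reads within 0.03 in every sample. Whether a read is a pair is not stated. limma-voom on those reads, which called 5990 and 6299 genes at the 2 doses beside 5781 and 6277, was an alternative, with the others in the closing section.

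The members and gene lists were chosen with earlier results of these data known. Relatives were named by size of change (up to 4 passing genes a list), plus relatives listed by name as close to the 8 genes. 1 relative under this rule is counted in its list and not reported here. All neighbours could be named, and the most alike genes were the top 8 for the mean profile and the top 3 a gene, without predicted genes and pseudogenes. The 68 strongly lost genes were defined after the values were seen. Neighbour order and promoters came from RefSeq GRCm38.p6.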

Additional observations from a re-analysis of the deposited data

How the results depend on the processing

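None of the 8 genes passed between the doses under any of 18 alternatives in which it was tested, a count that is not independent of how they were chosen. Bnc1 and Esx1 lay under the mean of 5 FPKM and were not tested in that alternative. The alternatives were a pseudocount of 0.1, no filter, a mean of at least 5 FPKM, quantile normalisation, TPM, fits of only the groups compared, limma-voom, a replicate block, each library left out, and both intermediate libraries left out. Samples of the same replicate number deviated together between vehicle and 0.1 mg/kg (r = 0.193, 0.132 and 0.0908, each sample best with its own number). They did not do so between vehicle and 1 mg/kg (0.00057, -0.0587 and -0.00619), and between the doses the values were mixed (-0.244, -0.441 and 0.279). The intermediate libraries carry different numbers and deviated together (0.1 mg/kg sample 2 with 1 mg/kg sample 1, r = 0.52), which could hide a pairing between the doses. Whether equal numbers mean a pairing thus cannot be told. With the replicate block 4967 genes were called at 0.1 mg/kg, 5541 at 1 mg/kg and 0 between the doses, beside 5781, 6277 and 2. Between the doses the count over all genes was 0 in fits of only the 2 groups and with a pseudocount of 0.1, 1 under the mean of 5 FPKM, 10 with no filter, 465 without both intermediate libraries and 133 without 0.1 mg/kg sample 2, the highest of the fits without 1 library (lowest 0). Leaving out 1 library gave 3414 (without 0.1 mg/kg sample 3) to 7074 (without 1 mg/kg sample 1) genes at 0.1 mg/kg and 4129 (without vehicle sample 3) to 7373 (without 1 mg/kg sample 1) at 1 mg/kg. Without both intermediate libraries the counts were 8424 and 8392, and under the mean of 5 FPKM, which tests fewer genes, 4159 at 1 mg/kg. Relatives that rose at 0.1 mg/kg numbered 10 with that mean and 7 to 20 without 1 library; those that fell numbered 4 with no filter, 16 without both intermediate libraries and 3 to 15 without 1 library. At 1 mg/kg, 6 rose with the mean of at least 5 FPKM, 21 without both intermediate libraries and 6 to 20 without 1 library, and 9 fell with that mean and 8 to 17 without 1 library. Neighbours that rose at 0.1 mg/kg numbered 8 in the fit of 2 groups, 1 with the mean of at least 5 FPKM, 3 with quantile normalisation, 10 without both intermediate libraries and 3 to 9 without 1 library, and those that fell numbered 5 with no filter and 3 to 12 without 1 library. At 1 mg/kg, 1 rose with that mean, 5 with no filter and 4 to 11 without 1 library, and 6 to 11 fell without 1 library. Among the named values, signs turned for Gpr65 at 1 mg/kg and for the 8 genes between the doses, none of which passed. Without both intermediate libraries Gpr65 at 1 mg/kg was at 0.12, and the difference between the doses was 0.02 for Nptx1, 0.00 for Bnc1, 0.04 for Stra6 and 0.00 for Lgi2. Without 1 library, Gpr65 at 1 mg/kg ran from -0.17 to 0.12, and the difference between the doses ran from -1.11 to 0.89 for Nptx1, -0.53 to 1.16 for Cpe, -0.72 to 0.47 for Bnc1, -0.67 to 0.54 for Stra6, -0.61 to 0.37 for Lgi2, -0.33 to 0.11 for Esx1, -1.44 to 0.72 for Scara3 and -1.42 to 0.84 for Gpr153. Of all alternatives for single genes, 1386 kept the direction and the call, or moved by less than the spread, 213 no longer passed, 23 newly passed and 26 changed sign. The cause was not tested.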

Other observations

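Xist stood high in the same pair of digoxin libraries as the 8 genes, but in 0.1 mg/kg sample 2, at 18.2 FPKM, it was above all 3 of its vehicle values, which none of the 8 genes was. Among Y-linked genes, Eif2s3y was at 1.84 to 2.15 FPKM with vehicle, 4.29, 2.73 and 4.11 FPKM at 0.1 mg/kg, and 0.882, 3.15 and 2.66 FPKM at 1 mg/kg, so 1 mg/kg sample 1 was the lowest of all 9 libraries. Kdm5d was above 0 in all 9 libraries, at 0.176 to 0.398 FPKM, and so was Uty, at 0.167 to 0.393 FPKM.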
